A study of Mus musculus with 10 samples.

Results

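TRiC, also called CCT, is the cytosolic chaperonin of eukaryotic cells, and its subunits were followed here across a heat treatment of mouse embryonic fibroblasts. The members were the 8 genes Tcp1, Cct2, Cct3, Cct4, Cct5, Cct6a, Cct7 and Cct8, taken by name, with every probe set that the array annotation assigns to them. That gave 25 of the 45037 probe sets left after the control spots were set aside, and 8 of 18193 genes with a probe set. A probe set is a group of short oligonucleotides on the array that together report 1 transcript region. Cct3 and Cct4 had 7 probe sets each, Cct2 had 3, Cct6a, Cct7 and Cct8 had 2 each, and Tcp1 and Cct5 had 1 each. No TRiC probe set carried a second gene symbol.

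The study compared cells given a mild heat shock (a preshock) with unheated cells in 2 fibroblast lines, and its title names thermotolerance as the question. One line is labelled hsp70 (-/-), a knockout, and the other is labelled (+/+) and described as rescue cells. Each line had preshocked cultures, held at 43 °C for 30 min in a water bath after 20 h of incubation and harvested 3 h later, and unheated cultures harvested at 23 h. Of the 10 arrays, 6 came from the knockout-labelled line (3 for each treatment) and 4 from the rescue-labelled line (2 for each treatment). All groups shared the same medium, DMEM with fetal bovine serum, and each sample was RNA pooled from 144 wells, so the spread between arrays does not show the spread between wells. The labels do not say how the rescue was made, whether a line was 1 clone, or whether samples of a group came from separate cultures, and p-values therefore measure the spread between these samples only. The array numbers adjoin in 5 pairs of 1 preshocked and 1 unheated array (5 and 6, 11 and 12, 13 and 14, 31 and 32, 43 and 44).

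TRiC is a double ring in which each ring holds one copy of every subunit, and it uses ATP to close over a newly made protein and let it fold inside. Actin and tubulin depend on it, and prefoldin, a separate chaperone, hands them over. Because the ring needs all of its subunits, the genes are usually expressed together and at high levels in growing cells such as cultured fibroblasts. Heat shock genes are switched on by heat shock factor 1, which binds repeats of the letters GAA and TTC in their promoters, the heat shock element. In mammalian cells TRiC genes have been described as targets of heat shock factors, although they are not among the strongly heat-inducible genes.

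The promoter letters are shown first, for the TRiC windows that held a short heat shock element and for 1 strongly induced gene as a contrast. The windows were RefSeq's (GRCm38.p6), from 250 bases before to 50 after each start, and 9 windows of 7 TRiC genes were matched. Cct4 was not matched. The short form searched was 2 facing units of 3 letters, GAANNTTC or TTCNNGAA, each of which reads the same on both strands, and the long form was 3 such units, GAANNTTCNNGAA or its complement TTCNNGAANNTTC, which contains both short forms. The capitals mark the matched letters, each line runs 5′ to 3′ on the gene's strand, and stretches rather than whole windows are printed.
Cct2, second start, chr10:117063376-117063475, minus strand: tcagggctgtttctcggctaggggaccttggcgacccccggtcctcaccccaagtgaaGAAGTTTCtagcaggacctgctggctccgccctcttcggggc
Cct5, first start, chr15:31601847-31601946, minus strand: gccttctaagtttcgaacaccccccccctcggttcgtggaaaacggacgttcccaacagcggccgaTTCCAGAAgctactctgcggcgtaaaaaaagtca
Cct6a, chr5:129787369-129787398, plus strand: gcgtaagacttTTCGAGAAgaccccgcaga
Hsph1, chr5:149636282-149636311, minus strand: aatgctgcagaTTCTGGAAAGTTCtcctca

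The matched letters began 42 bases before the start in Cct2 (position -42), at -34 in Cct5 and at 25 after the start in Cct6a. A short form was thus in 3 of 9 TRiC windows (33.3%), against 15.1% of 32851 windows of all genes. The long form was in 0 of the 9 windows, against 0.603% of all windows. Hsph1, which encodes the Hsp110 exchange factor of Hsp70, carried the long form. Counted by gene with a window, a short form was in 3 of 7 TRiC genes and 6 of 7 heat-inducible chaperone genes, against 17% of all genes. The long form was in 0 of 7 and 2 of 7, against 0.662%. These matches describe letters in a window and say nothing of binding.

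The signals were read as deposited intensities, set to a floor of 1, converted to log2 and quantile normalized, so that every array has the same distribution of values. Each gene was represented by its probe set with the highest mean, and 10915 genes were tested, which included all 8 TRiC genes. Of the 25 probe sets, 22 lay above the lowest mean of a tested gene and 17 lay above the 90th percentile of every array. Those used for the 8 genes lay between percentile 98.57 and 99.74 of each array, close to the top of the normalized scale, where quantile normalization leaves little room to move. The 3 probe sets below the lowest tested mean were 1 each for Cct3, Cct4 and Cct8. Of the fibroblast markers 9 of 10 were among the tested genes, led by Vim, the fibroblast intermediate filament vimentin, at a mean log2 intensity of 15.1. The dimmest were Pdgfra (group means 7.07 to 7.96), Thy1 (6.06 to 7.08) and Postn (mean 5.06), of which Postn was not tested. Of the epithelial, leukocyte, endothelial and muscle markers, 2 of 5, 2 of 5, 1 of 4 and 1 of 3 were tested, none with a mean log2 intensity above 7.41. In RNA from pooled wells, fewer cells and less RNA per cell cannot be told apart.

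The line labels name hsp70 without saying which hsp70 gene was deleted, and an inducible one was examined before the members. Hspa1b, which encodes inducible Hsp70, had deposited intensities on its brightest probe set of 220.4, 476.7 and 211.7 on the unheated arrays of the knockout-labelled line and of 19910, 30650 and 31560 after the preshock. In the rescue-labelled line the same probe set read 464.7 and 675 unheated and 37510 and 24680 after the preshock. Hspa1b therefore rose in both lines, by 6.81 on the log2 scale (SE 0.37, adjusted p = 2.49e-04, limma) in the knockout-labelled and 5.60 (SE 0.46, adjusted p = 0.00253, limma) in the rescue-labelled line. If Hspa1b is among the deleted genes, the measured transcript goes against the knockout label, and where the probes lie relative to a deleted part was not tested. The lines are called knockout-labelled and rescue-labelled for this reason.

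No change of a TRiC gene was detected after the preshock. None of the 8 was called at an adjusted p under 0.05 in either line, and the log2 changes ranged from -0.09 for Tcp1 to 0.11 for Cct8 in the knockout-labelled line and from -0.06 for Cct4 to 0.05 for Cct2 in the rescue-labelled line. In the same samples Hspa1b, Dnajb1, Bag3, Hsph1 and Hspb1 rose in the knockout-labelled line. Over all tested genes 1.77% were called in the knockout-labelled line (193 of 10915) and 0.357% in the rescue-labelled line. The count at an unadjusted p under 0.05 was also 0 of 8 in both lines, against 12.8% and 8.36% of all tested genes. Median log2 changes were 0.01 for TRiC against -0.04 for all tested genes in the knockout-labelled line, and -5e-04 against -0.03 in the rescue-labelled line.

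**Figure D1:**
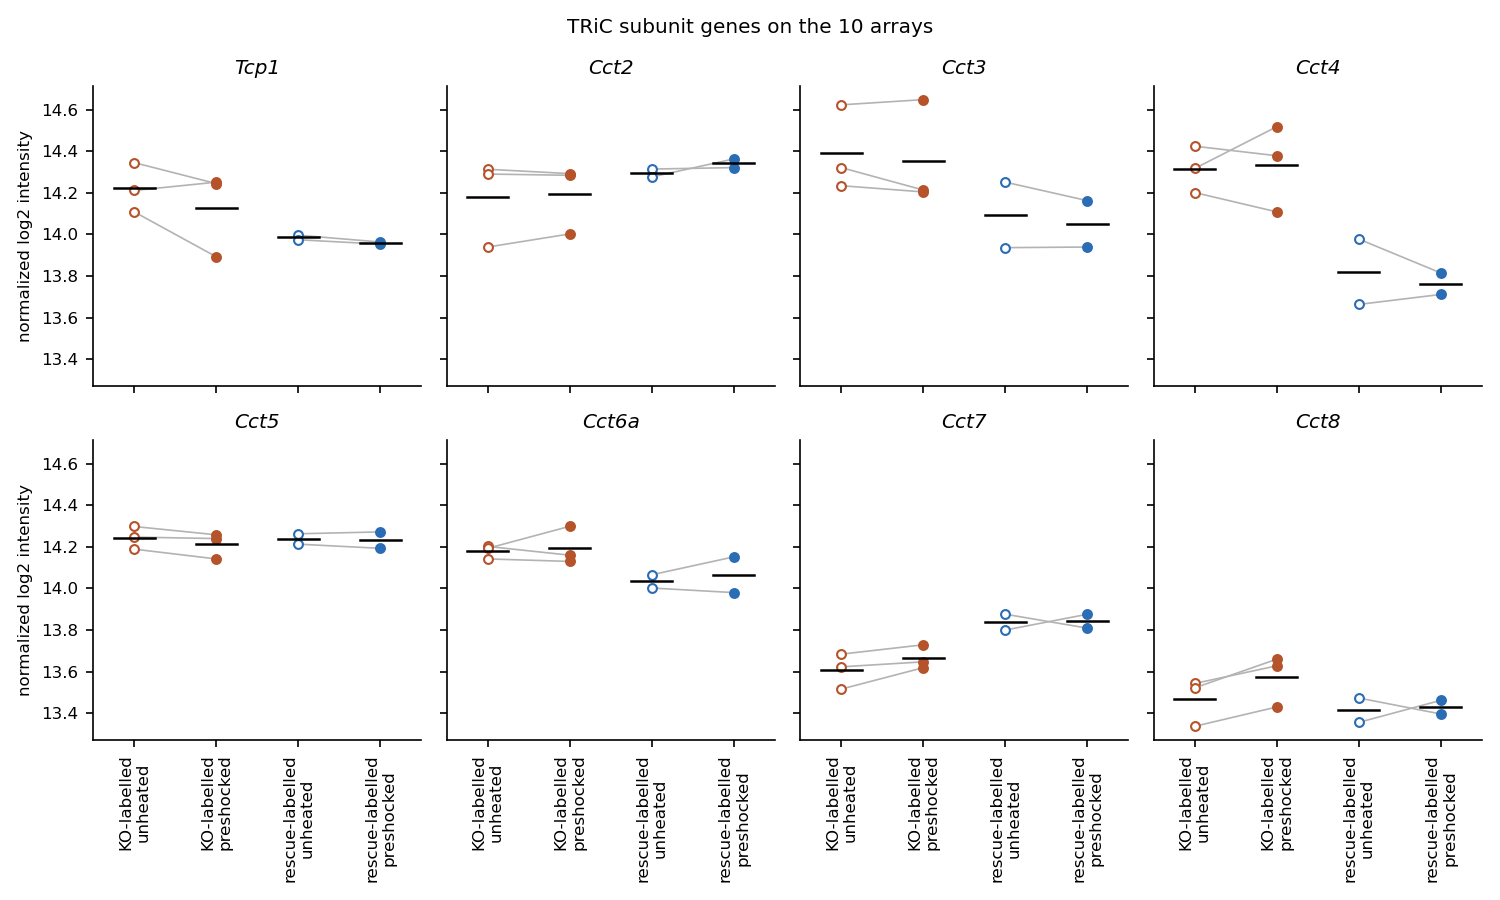
Normalized log2 intensity (vertical axis) of the 8 TRiC genes on the 10 arrays, by line and treatment; open circles are unheated arrays, filled circles preshocked arrays, black bars group means, and grey lines join adjoining array numbers. The unheated and preshocked circles of a line lie at similar heights, while Cct4 sits lower and Cct7 higher in the rescue-labelled line.

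Tcp1, the alpha subunit and the first of the family to be described, stood at normalized log2 intensities of 14.345, 14.211 and 14.108 on the unheated arrays of the knockout-labelled line (replicates 1 to 3) and 13.892, 14.251 and 14.244 on its preshocked arrays. On the rescue-labelled arrays it stood at 13.996 and 13.974 unheated and 13.953 and 13.963 preshocked. The knockout-labelled groups overlapped, with the lowest value on array 5, and the rescue-labelled groups were separated by a small gap. The log2 changes were -0.09 (95% CI -0.42 to 0.23, adjusted p = 0.971, limma) and -0.03 (CI -0.42 to 0.37, adjusted p of 1, limma).

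Cct2, the beta subunit, read 14.313, 14.29 and 13.939 unheated and 14.002, 14.284 and 14.292 preshocked in the knockout-labelled line. In the rescue-labelled line it read 14.314 and 14.276 unheated and 14.363 and 14.321 preshocked, again without overlap and with a difference of 0.05 (SE 0.18). The 2 separated rescue-labelled genes, Tcp1 below and Cct2 above, compare with 38.7% of all tested genes whose groups of 2 and 2 did not overlap. In the knockout-labelled line 0 of 8 TRiC genes were separated, against 16.4% of all tested genes.

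Cct3, the gamma subunit, varied more between the arrays of a group than with the preshock. Its values were 14.234, 14.321 and 14.623 unheated and 14.648, 14.213 and 14.204 preshocked in the knockout-labelled line, and 13.936 and 14.251 against 14.162 and 13.939 in the rescue-labelled line. The adjoining arrays 5 and 6 gave 14.648 and 14.623, the highest of the 10, so the spread followed the pairs of arrays. The log2 changes were -0.04 in both lines, with SE 0.18 and 0.23.

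Cct4, the delta subunit, read 14.201, 14.424 and 14.317 unheated and 14.518, 14.378 and 14.108 preshocked in the knockout-labelled line. In the rescue-labelled line it read 13.663 and 13.977 unheated and 13.814 and 13.711 preshocked. The treatments overlapped within each line, and every rescue-labelled array lay below every knockout-labelled one. The preshock changes were 0.02 (SE 0.16) and -0.06 (SE 0.19).

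Cct5, the epsilon subunit, was the steadiest member. All 10 of its values lay between 14.142 and 14.298, a range of 0.156 and an SD over arrays of 0.047, and the 4 groups overlapped. Its changes of -0.03 (CI -0.29 to 0.22) and -0.01 (CI -0.32 to 0.31) set the narrowest limits among the 8 genes.

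Cct6a, the zeta subunit, ranged from 14.142 to 14.202 unheated and from 14.13 to 14.299 preshocked in the knockout-labelled line, and from 14.002 to 14.066 against 13.98 to 14.152 in the rescue-labelled line. The treatments overlapped in both lines, and its changes were 0.02 (SE 0.12) and 0.03 (SE 0.14). Its near copy Cct6b, which in mouse is known as the testis form, had deposited intensities between 2.517 and 55.17, near the bottom of the scale.

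Cct7, the eta subunit, read 13.684, 13.623 and 13.516 unheated and 13.619, 13.647 and 13.729 preshocked in the knockout-labelled line, with changes of 0.06 (SE 0.11) there and 0.00 (value 0.0045, SE 0.14) in the rescue-labelled line. Cct8, the theta subunit, read 13.337, 13.543 and 13.522 unheated and 13.66, 13.628 and 13.43 preshocked in the knockout-labelled line. Both were higher in each of the 3 knockout-labelled pairs, yet their groups overlapped. The Cct8 change of 0.11 (CI -0.19 to 0.40, adjusted p = 0.943, limma) was the largest of the 8 in that line.

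Averaging the response over both lines narrowed the limits. None of the 8 genes was called for the mean response, against 4.42% of all tested genes, and the changes ran from -0.06 for Tcp1 to 0.06 for Cct8. The 95% intervals of the 8 genes together spanned 0.773-fold to 1.23-fold. Changes beyond these sizes lie outside the interval of every TRiC gene, read on its brightest probe set on this scale. When all probe sets of a gene were averaged, dim ones included, Cct4 stood at 0.60 and Cct8 at -0.59, neither of them called. With adjoining array numbers as a block, 0 of 8 were called while 17.4% of all tested genes were (9.15% in the knockout-labelled and 1.5% in the rescue-labelled line), and the intervals spanned 0.862-fold to 1.15-fold. The lines were also compared for their response. The difference, rescue-labelled minus knockout-labelled, ran from -0.09 for Cct8 to 0.07 for Tcp1, with 0 of 8 genes called, 0 at an unadjusted p under 0.05 (against 0.944% of all tested genes), and 0% of all tested genes called by limma.

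These changes depend on the scaling in sign but not in call. With the authors' scaling kept, or with arrays centred on their medians, all 8 genes were above 0 in both lines, and TRiC medians were 0.12 and 0.20 in the knockout-labelled and 0.12 and 0.14 in the rescue-labelled line. Other genes at the same height of the scale moved with them: the median of the 269 tested genes at or above the lowest TRiC mean was 0.08 and 0.16 in the knockout-labelled line and 0.10 and 0.11 in the rescue-labelled line. The lowest adjusted p of a TRiC gene under these scalings was 0.75 in the knockout-labelled line and 1 in the rescue-labelled line.

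**Figure D2:**
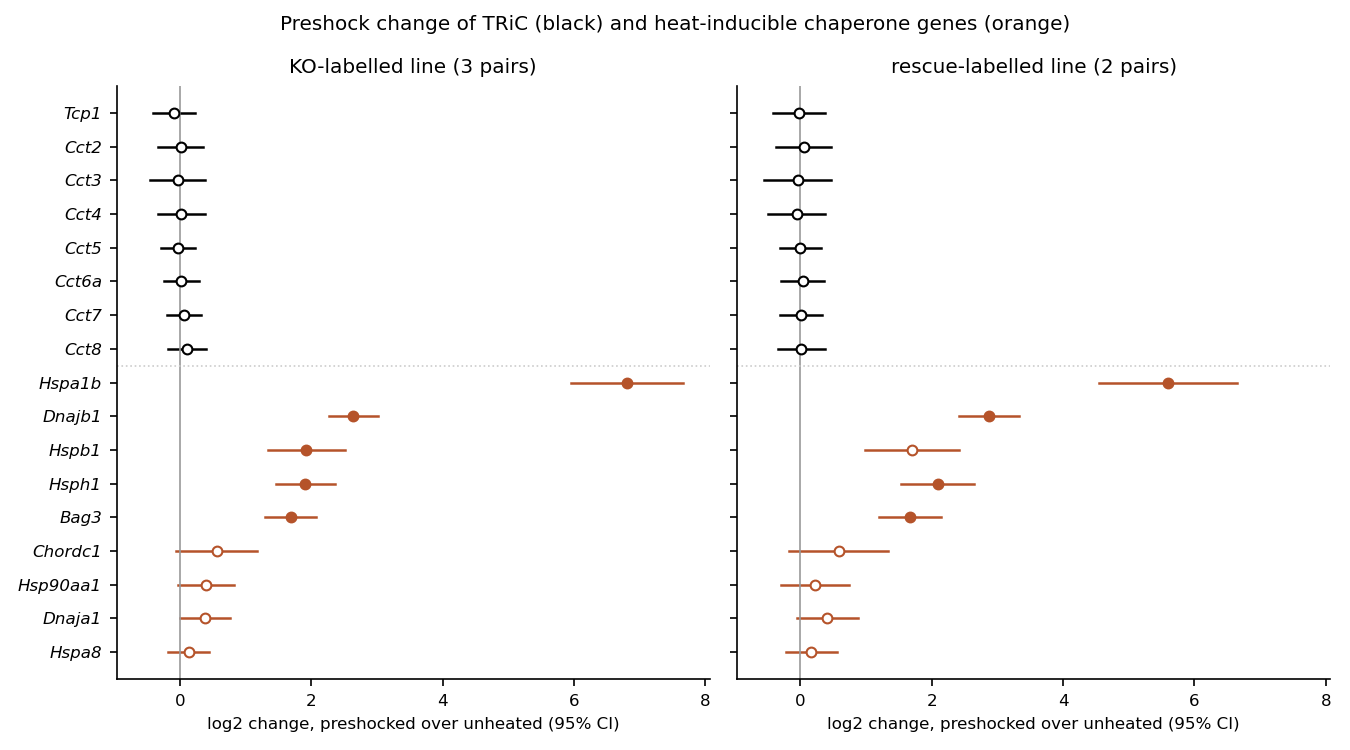
Log2 change of preshocked over unheated cells (horizontal axis, points with 95% confidence intervals) for the 8 TRiC genes in black and 9 heat-inducible chaperone genes in orange, in each line; filled points were called at an adjusted p under 0.05. The TRiC points lie between -0.09 and 0.11, while Hspa1b, Dnajb1, Bag3 and Hsph1 lie above 1.6 in both lines.

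The partners of TRiC were read from lists of the pathway. Of the heat-inducible chaperones, 5 of 9 tested members rose in the knockout-labelled line and 4 of 9 in the rescue-labelled line (7 and 4 with adjoining arrays as a block, where Hsp90aa1 and Chordc1 were added), with list medians of 1.68 and 1.67 on the log2 scale. Dnajb1, the J-domain cochaperone of Hsp70, rose by 2.64 (SE 0.16, adjusted p = 4.69e-04, limma) and by 2.87 (SE 0.20, adjusted p = 0.00185, limma). Hsph1, whose long heat shock element is shown above, rose by 1.90 (SE 0.20) and 2.09 (SE 0.24). Of the heat shock factor genes 0 of 2 tested were called, with Hsf2 at 0.45 (SE 0.32) and 0.72 (SE 0.39) and Hsbp1, which encodes a heat shock factor binding protein, at 0.07 (SE 0.13) and 0.02 (SE 0.16).

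Prefoldin, which delivers actin and tubulin to TRiC, had 0 of 6 subunits called in either line, with changes from -0.04 to 0.11 and from -1.23e-05 to 0.13. Pfdn2 stood at 0.11 (SE 0.27) and Pfdn4 at 0.10 (SE 0.18) in the knockout-labelled line. Of the phosducin-like cochaperones, which bind TRiC and modulate its folding of other proteins, 0 of 3 were called, with Pdcl3 at -0.06 in both lines. Of the tubulins and cytoplasmic actins, the main clients, 0 of 11 were called in either line. The largest changes were those of beta-tubulin genes with wide errors, Tubb2b at 0.42 (SE 0.51) in the knockout-labelled and Tubb3 at -0.77 (SE 0.87) in the rescue-labelled line. Actb, the cytoplasmic beta-actin, chosen after its values were seen, stood at -0.05 (SE 0.15) and -0.04 (SE 0.18). The tubulin folding cofactors, which assemble the tubulin dimer after TRiC, had 0 of 6 called, and other known clients 0 of 11. The largest of those was Ccne1, which encodes cyclin E1, at -0.73 (SE 0.18, adjusted p = 0.104, limma) and -0.51 (SE 0.22, adjusted p = 0.598, limma). With the block Ccne1 was called lower in the knockout-labelled line (adjusted p = 0.0232, limma) and for the mean response (-0.62, adjusted p = 0.0113, limma). Tubb2a, at 0.35, and Tubb2b, at 0.31, were then called higher for the mean response (adjusted p = 0.0226 and 0.0417, limma). With the block 2 of 11 tubulins and actins and 1 of 11 other clients were thus called for the mean response. Over all tested genes 17.4% were, so these counts are near or below the background.

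Related chaperonins were also read. Hspe1 and Hspd1, the mitochondrial Hsp10 and Hsp60 chaperonin, were not called, with Hspe1 at 0.18 (SE 0.16) and 0.27 (SE 0.20) and Hspd1 at 0.02 (SE 0.12) and 0.14 (SE 0.15). Both genes held the long heat shock element in a promoter window (2 of 2), as 2 of 7 heat-inducible chaperone genes did. With the block Hspe1 was called for the mean response, at 0.22 (SE 0.05, adjusted p = 0.0451, limma). Of 3 chaperonin-like proteins that, in mammals, act with TRiC in assembling the Bardet-Biedl protein complex of the cilium, Bbs10 fell by 1.55 on the log2 scale in the knockout-labelled line (SE 0.31, adjusted p = 0.0498, limma). It stood at -1.35 in the rescue-labelled line (SE 0.38, adjusted p = 0.277, limma). Bbs12 stood at -0.60 and -0.42 and was not called, but with adjoining arrays as a block it was called in the knockout-labelled line (SE 0.08, adjusted p = 0.0285, limma). For the mean response its blocked adjusted p was 0.0142 (limma). Mkks stood at -0.10 and -0.09 and was not called in either fit.

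At the level of probe sets, 0 of 25 were called in any of the 6 comparisons, against 0.06% of all probe sets in the knockout-labelled line, 0.0244% in the rescue-labelled line and 0.238% for the mean response. At an unadjusted p under 0.05 the counts were 2 of 25, 0 of 25 and 2 of 25, against 6.63%, 5.68% and 8.71% of all probe sets, which is near the background. For the difference of responses 0 of 25 were called, against 0.00666%. With adjoining arrays as a block 0 of 25 and 0% of all probe sets were called for each of these responses.

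**Figure D3:**
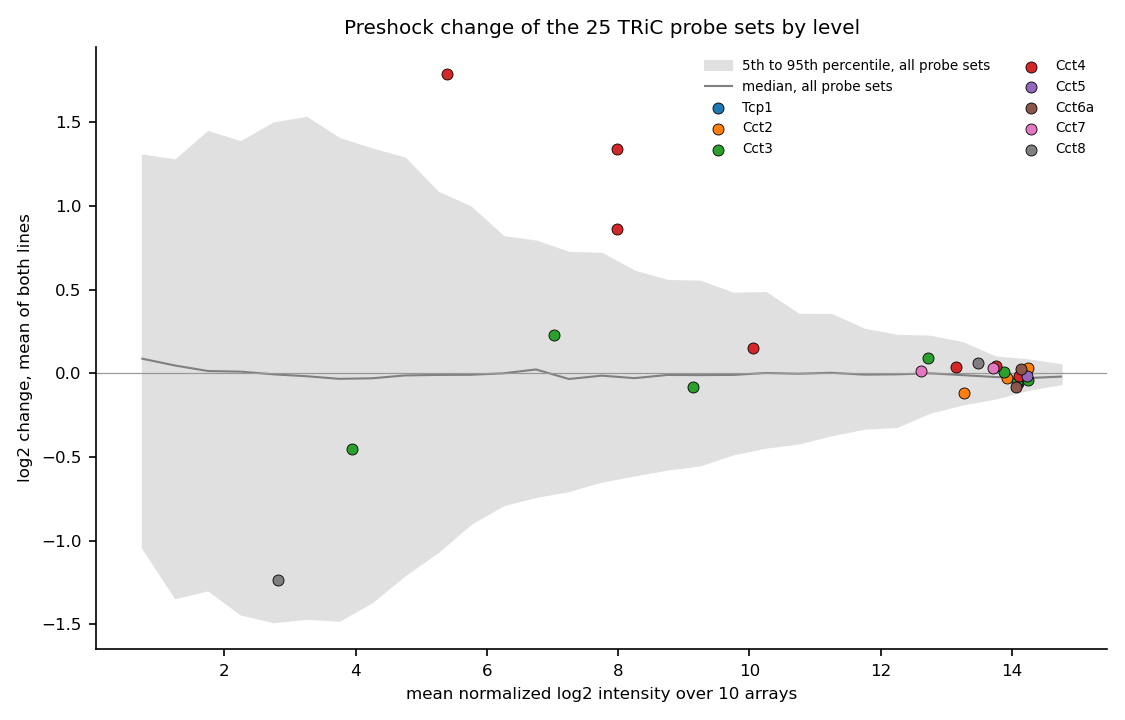
Mean preshock change of both lines (vertical axis, log2) against mean normalized log2 intensity (horizontal axis) for the 25 TRiC probe sets, coloured by gene; the grey band holds the 5th to 95th percentile of all probe sets in bins of level and the grey line their median. The bright TRiC probe sets gather near 0, and 3 dim Cct4 probe sets lie above the band, at 0.86, 1.34 and 1.79.

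The largest changes among the 25 were those of dim probe sets, of Cct4 and Cct8, named here after their values were seen. Probe set 1436973_at of Cct8, the dimmest of all, stood at -1.39 in the knockout-labelled and -1.08 in the rescue-labelled line, and at -1.24 for the mean response (SE 0.96, adjusted p = 0.855, limma). Its deposited intensities lay between 0.3915 and 34.58 and it was higher after the preshock in 1 of 5 pairs. Probe set 1430034_at, annotated to Cct4 through an expressed sequence tag, had deposited intensities of 175.8, 194 and 238.1 unheated and 467.4, 348.8 and 279.3 preshocked in the knockout-labelled line. In the rescue-labelled line it had 144.9 and 216.4 unheated and 363.7 and 229.7 preshocked. Preshocked values lay above unheated ones without overlap in both lines. On the normalized scale 1 of 25 TRiC probe sets was separated in the knockout-labelled and 6 of 25 in the rescue-labelled line. Over all probe sets the shares were 11.3% and 34.3%, so separation within 1 line is not rare. These shares count either direction, and the share that was higher without overlap in both lines was not computed.

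The pair differences of 1430034_at were 1.25, 0.99, 0.73, 0.82 and 0.65 on the log2 scale, in the order of the array numbers. The change was 0.99 (SE 0.28, unadjusted p = 0.00868, adjusted p = 0.47, limma) in the knockout-labelled line and 0.74 (SE 0.34, adjusted p = 0.929, limma) in the rescue-labelled line. Over both lines it was 0.86 (SE 0.22, unadjusted p = 0.00519, adjusted p = 0.255, limma), which missed the threshold, and its adjusted p over the alternatives ranged from 0.113 to 0.594. Probe set 1456572_x_at was also higher in all 5 pairs, by 0.62 to 3.13, with a mean change of 1.34 (SE 0.75). The third, 1415868_at, had a mean below those of the tested genes and was higher in 4 of 5 pairs.

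Of the 25 probe sets, 3 (12%) were higher in all 5 pairs, against 9.34% of all probe sets, which is near the background, and 0 of the 8 probe sets used for the genes were. The other one was 1449645_s_at of Cct3, by 0.02 to 0.19. The bright Cct4 probe sets 1433447_x_at, 1415867_at and 1438560_x_at stood at -0.02, 0.04 and 0.04 for the mean response. The dim and the bright Cct4 probe sets therefore disagree on the size of the change, and where their probes lie in the transcript was not analysed here.

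**Figure D4:**
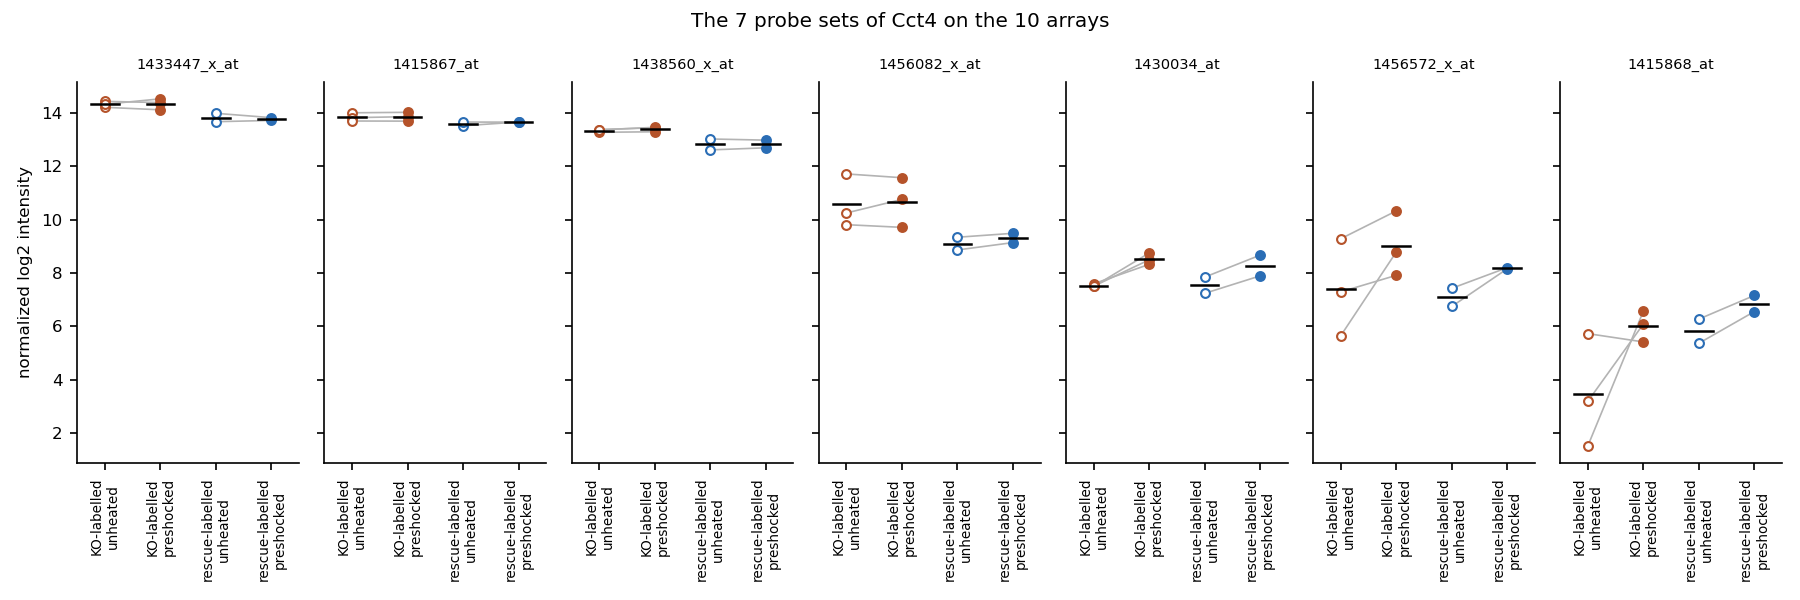
Normalized log2 intensity (vertical axis) of the 7 Cct4 probe sets, from brightest to dimmest, on the 10 arrays; open circles are unheated and filled circles preshocked arrays, black bars are group means and grey lines join adjoining array numbers. The 3 dimmest are higher after the preshock in most pairs, 1430034_at in all 5, and the 4 brightest are lower in the rescue-labelled line.

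Between the lines, 0 of 8 TRiC genes were called in unheated cells, where 0.421% of all tested genes were, and 0 of 8 in preshocked cells, where 0.339% were (0.202% and 0.147% with the block, which called 0 of 8 as well). Cct4 had the largest difference, rescue-labelled minus knockout-labelled, of -0.49 (SE 0.17, unadjusted p = 0.0208, adjusted p = 0.305, limma) in unheated and -0.57 (SE 0.17, unadjusted p = 0.0103, adjusted p = 0.225, limma) in preshocked cells, a ratio of 0.71 and 0.673. It was the 1 gene of 8 with an unadjusted p under 0.05 in each comparison, against 12.9% and 14.1% of all tested genes, so this count is near the background. The same direction was seen on its 4 brightest probe sets, whose groups did not overlap in either comparison, with unheated differences of -0.49, -0.25, -0.52 and -1.49. On the last of these, 1456082_x_at, the unheated knockout-labelled values themselves ran from 9.81 to 11.71. The dimmer Cct4 probe sets were mixed in unheated and preshocked cells. 1415868_at stood at 2.33 and 0.83 (SE 1.07), 1430034_at at 0.01 and -0.24 (SE 0.31) and 1456572_x_at at -0.32 and -0.83 (SE 1.05). Centred on array medians, the difference of the Cct4 gene was 0.23 and 0.11, while the median of all tested genes was 0.50 and 0.42. With the authors' scaling Cct4 stood at -0.31 and -0.35, against -0.04 and -0.05 for all tested genes. The sign of the Cct4 difference thus turned with the scaling, but Cct4 lay below the median of all tested genes under each of the 3 scalings.

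Cct7 went the other way, at 0.23 (SE 0.13, adjusted p = 0.48, limma) in unheated and 0.18 (SE 0.13, adjusted p = 0.569, limma) in preshocked cells, with every rescue-labelled array above every knockout-labelled one of the same treatment. This sign held under all 19 alternatives, which share arrays and include the centring on medians that put all 8 genes above 0. The second Cct7 probe set, 1415817_s_at, however stood at -0.11 in unheated and 0.09 in preshocked cells (SE 0.21). Cct3 stood at -0.30 in both comparisons (SE 0.21), Tcp1 at -0.24 and -0.17 (SE 0.16), and Cct2 at 0.11 and 0.15 (SE 0.17). Tcp1 had only 1 probe set, and some other bright probe sets of Cct3 and Cct2 went the opposite way. For Cct3, 1449645_s_at stood at 0.43 and 0.46 (SE 0.34) and 1459987_s_at at 0.19 and 0.20 (SE 0.20). The brighter 1416024_x_at of Cct3 was near 0, at 0.01 and 0.10 (SE 0.23). For Cct2, 1433534_a_at stood at -0.44 and -0.74 (SE 0.37), but the brighter 1416037_a_at went with the gene, at 0.09 and 0.18 (SE 0.32). The groups of 4 of 8 genes did not overlap in unheated cells, against 31.2% of all tested genes, and of 4 of 8 in preshocked cells, against 33%. Of the probe sets, 10 of 25 and 11 of 25 were separated, against 26.2% and 25.7%, and 0 of 25 were called, against 0.0266% and 0.04% (0.00666% and 0.0111% with the block, which called 0 of 25).

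The order of the group means is given for Cct4 and Cct7, which were chosen after their line differences were seen. For Cct4 it ran from preshocked rescue-labelled (13.762), unheated rescue-labelled (13.82) and unheated knockout-labelled (14.314) to preshocked knockout-labelled (14.335), and for Cct7 from unheated and preshocked knockout-labelled (13.607 and 13.665) to unheated and preshocked rescue-labelled (13.838 and 13.842). In both orders, neighbours of the same line did not differ beyond their spread. The group means of Tcp1, Cct2, Cct3, Cct6a and Cct8 were also ordered by line. Those of Cct5 were not, and ran from preshocked knockout-labelled (14.213) over preshocked and unheated rescue-labelled (14.232 and 14.238) to unheated knockout-labelled (14.245).

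The median of the 8 line differences was -0.10 in unheated and -0.14 in preshocked cells, against -0.02 and -0.01 for all tested genes. Centring on array medians turned these TRiC medians to 0.58 and 0.50, but it also moved the median of all tested genes to 0.50 and 0.42. Relative to all genes the TRiC medians were -0.08 and -0.12 with quantile normalization and 0.08 and 0.08 under either other scaling. Relative to the tested genes at or above the lowest TRiC mean, the TRiC medians were lower under each of the 3 scalings: at -0.11 and -0.16 in unheated and preshocked cells with quantile normalization, and at -0.16 and -0.18 under either other scaling. The direction of the TRiC median between the lines thus depends on the genes it is set against.

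**Figure D5:**
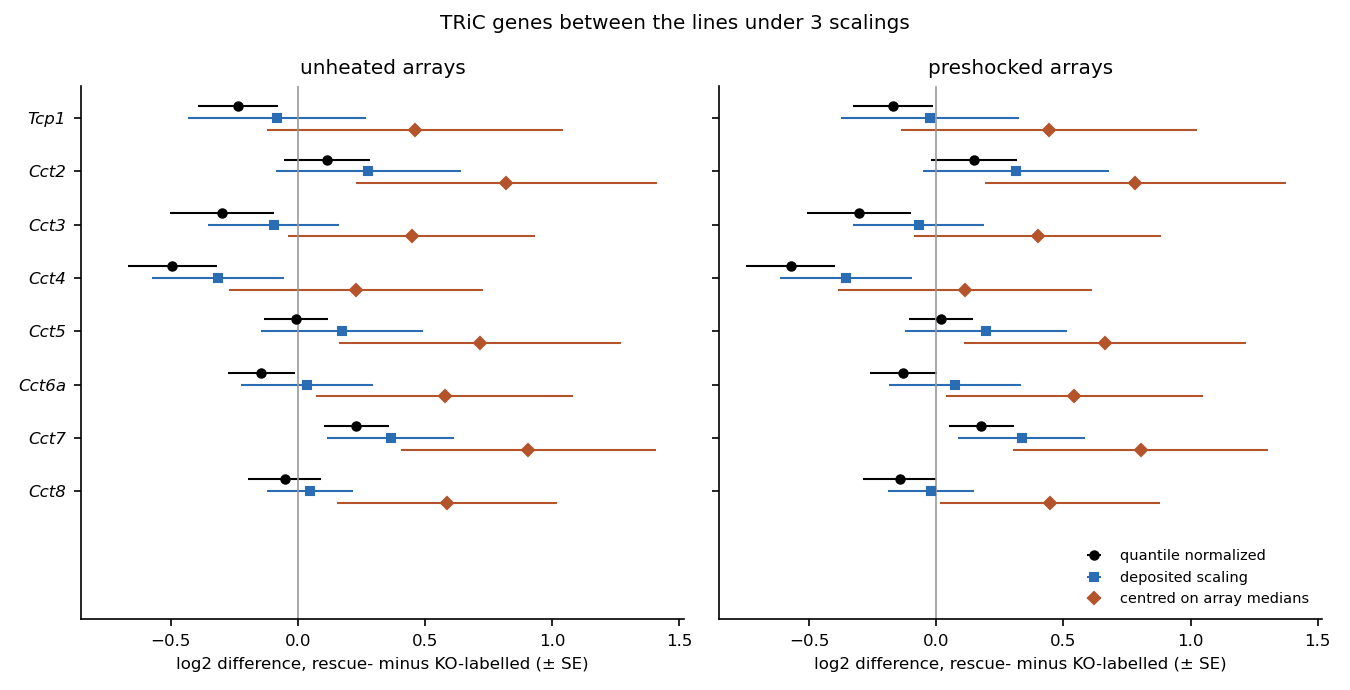
Log2 difference of rescue-labelled minus knockout-labelled cells (horizontal axis, points with standard errors) for the 8 TRiC genes in unheated and preshocked arrays, with quantile normalization (black), the authors' scaling (blue) and centring on array medians (orange). Cct4 is the lowest gene under each scaling and Cct7 the highest, while the position relative to 0 shifts with the scaling.

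Within groups the TRiC genes varied little, with a median SD of 0.121 on the log2 scale against 0.268 for all tested genes, but 0.129 for the 263 genes at or above the lowest TRiC mean. Cct4 had the widest range over the arrays, 0.855, and Cct3 followed with 0.712. For each of the 8 genes either the highest or the lowest of the 10 values came from array 5 or 6, the pair whose median deposited intensities of 100.4 and 107.02 lay above the 50.7 to 73.7 of the other arrays. Without that pair Cct4 stood at -0.53 (SE 0.19) and -0.51 (SE 0.19) between the lines and Cct7 at 0.19 and 0.16 (SE 0.14), none of them called.

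On the quantile normalized scale, the 8 TRiC genes did not share a pattern over the 10 arrays. Their correlations with each other were not computed under the other scalings. In deposited intensities Tcp1, Cct2, Cct5, Cct6a, Cct7 and Cct8 were each lowest on array 5 or 6, and Cct3 and Cct4 on array 44. The Pearson correlation of a gene with the mean of the other 7 ran from -0.834 for Cct7 and -0.556 for Cct2 to 0.761 for Cct4 and 0.839 for Cct6a. The genes whose pattern over the 10 arrays was most like the mean of the 8 TRiC genes were Melk, Smchd1, Mmachc, Celf2 and Atp5mpl, with Pearson correlations from 0.959 to 0.978. The arrays share their pair, line and treatment, and the likeness is a description without a test. Of these 5, 0 were among the 5 most alike under either other scaling and 3 were without arrays 5 and 6, so the list follows the scaling rather than the genes alone.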

How the data were processed

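The deposited values are intensity values of Affymetrix arrays on a linear scale, 1 per probe set, which the authors had scaled to a common trimmed mean, as the values show (about 500 on each array). Per the labels' protocols, 1.5 µg of total RNA was labelled in 1 cycle with oligo-dT priming. The sources used here do not name the summarising software. The number of arrays limits the precision. Values were floored at 1, converted to log2 and quantile normalized, and each of the 18193 genes took its probe set with the highest mean (GEO's platform annotation, names updated through RefSeq). The upper 60% by mean were fitted with limma 3.58.1 (R 4.3.3) as 4 group means over all 10 arrays, with Benjamini-Hochberg adjustment over all of them and calls at 0.05. All 45037 probe sets were fitted likewise without a filter. The fits were tested on simulated data.

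Named were all 8 genes and their probe sets, up to 4 called members of each other list or, where none was called, up to 2 with the largest change, and the 5 genes most alike. The members and lists were chosen with earlier results of these data known. Deviations from group means correlated within every pair of adjoining array numbers (0.721, 0.376, 0.552, 0.37 and 0.37). The rescue-labelled values are necessarily equal, because the deviations of 2 arrays from their mean mirror each other, so they count once. Each array's closest partner was its adjoining number. The numbers were used as a replicate block (random between the lines, with duplicateCorrelation). Of probe sets, 34945 had 1 gene symbol, 932 several and 9160 none. Coordinates are GRCm38.p6.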

Additional observations from a re-analysis of the deposited data

How the results depend on the processing

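Under 19 alternatives (2 scalings, no filter, a floor of 16, the mean of all probe sets, trended and robust moderation, the replicate block of adjoining array numbers, fits of the compared groups only, and leaving out arrays 5 and 6 or each array in turn), 0 TRiC genes and 0 TRiC probe sets were called in any comparison in which they were refitted. Fits of the compared groups only were not run for the mean and the difference of responses, which use all 4 groups. The lowest adjusted p of a TRiC gene was 0.119, for Cct4 between preshocked lines. Signs of the uncalled genes turned in 27 of 152 values for the knockout-labelled response, 22 of 152 for the rescue-labelled response, 23 of 144 for the mean response, 28 of 144 for the difference of responses, and 16 and 10 of 152 for the lines unheated and preshocked. The median TRiC change moved by more than the spread of the TRiC mean between arrays of a group (0.0397 on the log2 scale) in 19 of 102 values. Centred on array medians, it was 0.202 and 0.1367 for the knockout- and rescue-labelled responses, 0.1754 for their mean, -0.0499 for their difference, and 0.5819 and 0.4953 for the lines unheated and preshocked. With the authors' scaling kept it was 0.1165, 0.1247 and 0.1267 for the responses and their mean and 0.0405 and 0.0273 for the lines. Without arrays 5 and 6 it was -0.0272 for the knockout-labelled response and -0.0936 between preshocked lines. Leaving out 1 array at a time, it ran from -0.1679 to -0.0778 between preshocked lines, from -0.077 to 0.059 for the difference of responses and from -0.036 to 0.0426 for the rescue-labelled response. The cause was not tested. The pairing changed no call of a TRiC gene or probe set. The TRiC medians of the responses were the same in the paired analysis. Pairs of 1 preshocked and 1 unheated array of a line make them so, whatever the data. The pairing added calls in other lists. In the knockout-labelled line heat-inducible chaperones went from 5 to 7, the chaperonin-like proteins from 1 to 2 and other clients from 0 to 1. For the mean response heat-inducible chaperones went from 5 to 8, tubulins and actins from 0 to 2 and the mitochondrial chaperonin from 0 to 1. Over all tested genes the pairing raised the share called as well. That share went from 1.77% to 9.15% in the knockout-labelled line and from 4.42% to 17.4% for the mean response. Signal near the top of the scale limits what quantile normalized values can show, and the 3 dimmest probe sets are near the floor.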
